A study of Mus musculus with 4 samples.

Results

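The genes described here are Dlx1, Dlx2, Dlx3, Dlx4, Dlx5 and Dlx6, the homeobox transcription factors of the Dlx code, together with Hand2 and Pou3f3, which mark lower and upper jaw mesenchyme. They were taken by gene symbol and make up 8 of the 32285 genes counted in single-cell RNA sequencing of developing mouse molars. There were 4 libraries, from wild-type C57BL/6J mice (labelled WTB6), with the maxillary (upper jaw) and the mandibular (lower jaw) molars taken in the embryo at E15.5 (labelled E15) and soon after birth at P1 (pups of P0 or P1). Each library was 1 pool of 6 tooth organs with no treatment, so there were no replicates, no test of a difference between jaws could be run, and every interval below covers counting error only. Nothing in a single pair of libraries separates the jaw from the dissection or from the handling of that library.

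In the embryonic face, neural crest cells of the first pharyngeal arch form both jaws, and nested expression of Dlx genes gives them their address. Dlx1 and Dlx2 are active in the mesenchyme of the upper and the lower part of the arch, while Dlx5 and Dlx6, with Dlx3 and Dlx4 closer to the midline, are active in the lower part. Endothelin-1 from the epithelium acts through its receptor Ednra on the lower arch and switches on Dlx5 and Dlx6, and through them Hand2, a basic helix-loop-helix factor of the distal lower jaw. Loss of Dlx5 and Dlx6 gives the lower jaw features of the upper one. Pou3f3 is a POU-domain factor of the upper, proximal part of the arch and is needed for bones of the cheek and skull side. Dlx genes return later in teeth, where Dlx3 acts in enamel, dentin and bone formation.

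The Dlx genes lie in the mouse genome as convergent pairs on opposite strands, which is the arrangement that their names follow. By the GENCODE vM21 annotation of GRCm38, Dlx1 (chr2:71528113-71533981, plus strand) and Dlx2 (chr2:71543408-71546754, minus strand) were 9426 bases apart. Dlx3 (chr11:95120119-95125296, plus strand) and Dlx4 (chr11:95140447-95146263, minus strand) were 15150 bases apart. Dlx6 (chr6:6863334-6868568, plus strand) and Dlx5 (chr6:6877805-6882085, minus strand) were 9236 bases apart. Hand2 (chr8:57320983-57324633, plus strand) overlapped the long non-coding gene Hand2os1 (chr8:57281117-57324233, minus strand) by 3251 bases, with 461 exonic bases in common. Pou3f3 (chr1:42695768-42703176, plus strand) began 926 bases from the start of the non-coding gene Pantr1 (chr1:42590782-42694842, minus strand) and did not overlap it. Exons of Dlx1 and Dlx4 overlapped those of the antisense genes Dlx1as (335 bases) and Dlx4os (79 bases), and Dlx6os1 crossed Dlx6 with 0 exonic bases in common. The strand setting of the counting is not given in the sources used here, so reads in these overlaps may not be told apart.

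The stretch before Hand2 is shown because Hand2 had the most unequal levels of the 8 genes between the jaws and the RefSeq model of its neighbour Hand2os1 starts within the same 250 bases. The GENCODE model given above starts on the other side of the first base of Hand2, so the annotations differ here. It is chr8:57320733-57320982, plus strand, GRCm38.p6, from RefSeq, and ends at the base before the first base of Hand2. Capitals mark the 123 bases between the first bases of the RefSeq models of Hand2os1 and Hand2.
Hand2 upstream: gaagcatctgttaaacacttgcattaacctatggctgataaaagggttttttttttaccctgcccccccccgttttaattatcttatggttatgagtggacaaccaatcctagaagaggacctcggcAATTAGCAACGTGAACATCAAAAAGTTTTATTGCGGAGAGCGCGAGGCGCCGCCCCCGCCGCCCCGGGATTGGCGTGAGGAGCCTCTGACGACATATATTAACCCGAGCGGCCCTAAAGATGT
The capitals held 13 CG dinucleotides. The letters TAATTA, a core bound by many homeodomain proteins and the same on both strands, occurred 1 time in the 300 base window of Hand2 (250 bases before to 50 after its start), with its first base 175 bases before the start. They were not in the windows of Dlx1, Dlx2 and Pou3f3, the other members with a window, and 5.29% of 32851 mouse windows of this length held them.

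Cells were counted where a barcode had at least 1000 unique molecular identifiers (UMIs). This left 10073 cells in the E15.5 maxillary, 6911 in the E15.5 mandibular and 17040 in the P1 maxillary library, with medians of 9596, 11234 and 4019 UMIs. The P1 mandibular library kept 10120 cells at a median of 10390 UMIs, after barcodes that it shared with the P1 maxillary library were left out. Cells of both jaws of a stage were clustered together without the genes described here. Mesenchyme held 5689, 3061, 9685 and 5208 cells in the order E15.5 maxillary, E15.5 mandibular, P1 maxillary, P1 mandibular, and this order is kept throughout. Epithelium held 1071, 143, 1862 and 2102 cells. Dental cells were present by their markers, among them epithelium led by Shh and Sp6 at E15.5 and an ameloblast-like cluster led by Enam and Amelx at P1, but the dissections also held muscle, tendon, bone, nerve and blood cells. Clusters without a clear identity held 5.88%, 7.05%, 12.3% and 10.0% of cells. Levels below (CPM) are the UMIs of a gene per 1000000 UMIs of its class, and they are not compared between genes.

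The P1 libraries were not separate in their barcodes. They had 7131 barcodes in common, 38.1% of the maxillary and 36.8% of the mandibular barcodes, whereas other pairs of libraries had between 28 and 70. In these barcodes the maxillary library held a median of 12088 UMIs and the mandibular library 2870, and the log2 ratio of the counts was narrow, at a median of 2.07 with the 95th percentile at 2.18. Hand2, the gene of the lower jaw, was almost absent from them in either reading. In P1 mesenchyme it was at 0 CPM in 4846 cells found only in the maxillary library, at 0.0615 CPM (4 UMIs) in the shared cells as read in the maxillary library, at 0.0642 CPM (1 UMI) in the shared cells as read in the mandibular library and at 9.05 CPM (607 UMIs) in the 5208 cells found only in the mandibular library. Pou3f3 followed the opposite order, at 26.0, 25.2, 22.6 and 8.90 CPM. For both genes the shared barcodes, summed over mesenchyme, sat with the maxillary cells, also when their counts came from the mandibular library. Pou3f3 did not do so in every cluster. In those led by Clec3b and by Dpt its level in shared cells was below both other sets.

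The Dlx genes divided the same cells differently. Dlx3 stood at 6.09 CPM in the maxillary-only cells, 117 and 103 CPM in the shared cells by the maxillary and the mandibular reading, and 72.3 CPM in the mandibular-only cells. Dlx5 stood at 15.7, 163, 152 and 113 CPM in the same sets. The maxillary-only cells had the lowest level of all 6 Dlx genes, and they were also shallow, with a median of 2605.5 UMIs against 12263 in the shared cells. Of the 1555 maxillary cells in the cluster led by Grik1 and Scn9a, 27 were maxillary-only. In the papilla-like cluster led by Enpp6 and Stbd1 it was 5 of 387. For the cluster led by Dmp1 and Bglap it was 19 of 392, and for that led by Spp1, Mmp13 and Pdzrn4 984 of 1088. The sets thus differed in cell types as well as depth, and the part of this in the Dlx levels was not tested. Every P1 comparison of Dlx genes between jaws therefore rests on whether the shared barcodes are counted with the maxillary library, and values without them are given for the sums over mesenchyme and epithelium.

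**Figure D1:**
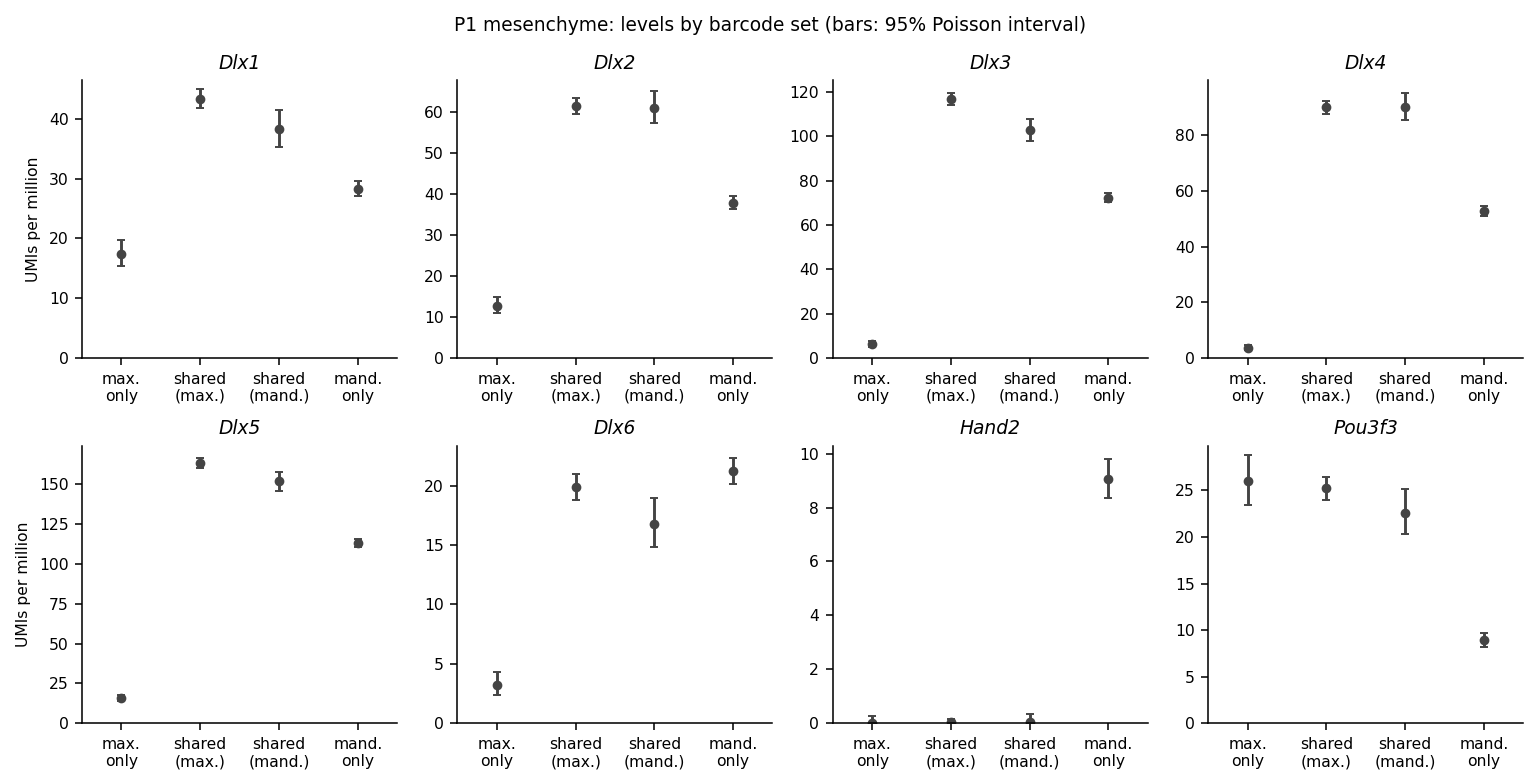
Levels of the 8 genes in P1 mesenchyme (CPM, linear axes that start at 0) in 4 sets of barcodes: maxillary only, shared as read in the maxillary library, shared as read in the mandibular library, and mandibular only. Bars are 95% Poisson intervals; Hand2 reached 9.05 only in the mandibular-only set, and Dlx3, Dlx4 and Dlx5 were lowest in the maxillary-only set.

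Hand2 was a mandibular mesenchymal gene at both stages. Its level in mesenchyme was 0.826 CPM (51 UMIs) in the E15.5 maxillary and 18.6 CPM (822 UMIs) in the E15.5 mandibular library. At P1 it was 0.0505 CPM (4 UMIs) and 9.05 CPM (607 UMIs, 95% Poisson interval 8.35 to 9.80). Cells with a Hand2 UMI made up 0.633%, 16.0%, 0.0413% and 6.01% of mesenchyme. After each cell was thinned to 2000 UMIs the shares were 0.199%, 3.43%, 0.0117% and 1.66%, in the same order of libraries. Immune and erythroid cells, which should lack the gene, gave 0.134%, 0.325%, 0% and 0.283% of cells with a Hand2 UMI, at median depths of 7309, 7915.5, 2156 and 6871.5 UMIs against 10054, 13644, 5624 and 12004 in mesenchyme. The 0 of 1329 such cells in the P1 maxillary library allows a share of up to 0.226%. The P1 maxillary mesenchyme was under that limit, while both mandibular mesenchymes lay far above the background.

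The log2 ratio of the jaws (mandibular minus maxillary) for Hand2 in mesenchyme was 4.50 at E15.5 (95% binomial interval 4.09 to 4.93), or 22.6-fold. At P1 it was 7.49 (6.12 to 9.37), with only 4 maxillary UMIs behind it. Among 11306 genes with a mean of at least 5 CPM over the jaws, Hand2 had the third highest ratio towards the mandible in E15.5 mesenchyme. Over every way of selecting, naming and weighing cells that was tried, the ratio stayed between 4.12 and 4.72 at E15.5 and between 4.38 and 8.05 at P1. With the shared barcodes dropped from both P1 libraries it was 5.41, a lower bound set by a floor of 3 UMIs.

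The Hand2 difference was spread over mesenchymal clusters. Of 9 mesenchymal clusters at E15.5 with at least 50 cells from each jaw, 8 had enough UMIs for a ratio. Hand2 was at least 2-fold higher in the mandibular cells in 8 of 8, with a median log2 ratio of 4.21. At P1 the count was again 8 of 8, out of 10 clusters, with a median of 4.69, and 5 of these ratios were lower bounds because the maxillary cells had no Hand2 UMI. With the shared barcodes left out, an alternative chosen after seeing the data, 5 of the 10 clusters kept at least 50 maxillary cells and 3 of them had a ratio for Hand2. All 3 were lower bounds, from 0.73 to 4.11, and 2 of the 3 were past 2-fold. The level was uneven. At E15.5 it reached 41.8 CPM in 293 mandibular cells of the osteoblast-like cluster led by Ibsp, Spp1 and Mmp13 against 0.634 CPM in 107 maxillary cells. Of the 51 UMIs in E15.5 maxillary mesenchyme, 21 lay in the cluster led by Ostn and Tnn (4.23 CPM) and 14 in that led by the cell-cycle genes Mxd3 and Hmmr (3.46 CPM). In the mandibular library Hand2 was as low as 1.08 CPM (2 UMIs) in 162 cells of the cluster led by Pappa2, Ptprr and Itgbl1. At P1 the 512 mandibular cells of the cluster led by Pappa, Gabrg3 and Lypd1 had 34.5 CPM, and no Hand2 UMI was found in its 679 maxillary cells. Papilla-like clusters at P1 were low even in the mandible, at 1.74 CPM in the cluster led by Enpp6 and Stbd1 and 2.74 CPM in that led by Pcp4 and Aox3. The cluster led by Dmp1, Bglap and Bglap2 had 3.67 CPM in mandibular and 0.129 CPM in maxillary cells.

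Pou3f3 had the opposite bias, at a smaller size. Its level in mesenchyme was 42.8 CPM (2641 UMIs), 20.7 CPM (911), 25.3 CPM (2007) and 8.90 CPM (597). The log2 ratio was -1.05 (-1.16 to -0.94) at E15.5 and -1.51 (-1.64 to -1.38) at P1, and at E15.5 the interval crossed the 2-fold line. The direction was the same in all settings tried, from -1.20 to -1.04 at E15.5 and from -2.17 to -1.14 at P1, and was -1.54 with the shared barcodes dropped from both P1 libraries. Pou3f3 ranked 69th towards the maxilla among 11528 genes at P1 and 303rd of 11306 at E15.5. After thinning, 7.60%, 3.33%, 5.30% and 2.08% of mesenchymal cells had a Pou3f3 UMI. Immune and erythroid cells gave 0.0776%, 0%, 0.387% and 0%.

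By cluster, Pou3f3 was far less even than Hand2 at E15.5. It was at least 2-fold higher in maxillary cells in 4 of 9 clusters, with a median log2 ratio of -0.47. The widest gap was in the Ibsp, Spp1 and Mmp13 cluster, at 20.9 CPM maxillary and 2.01 CPM mandibular (log2 -3.38), which was also where mandibular Hand2 was high. The cluster led by Plppr1, Gm26871 and Dlx1as had 82.3 CPM in maxillary and 12.1 CPM in mandibular cells (log2 -2.77), with Hand2 at 0 and 15.3 CPM. In contrast, fibroblast-like cells led by Mfap5 and Wnt2 had 28.6 and 27.6 CPM, tendon-like cells led by Tnmd and Scx had 39.4 and 44.5 CPM, and dividing cells led by Mxd3 had 22.7 and 30.9 CPM. The intervals of the fibroblast-like and tendon-like ratios included 0. At P1 8 of 10 clusters were at least 2-fold higher in the maxilla, with a median of -2.51. The exceptions were the fibroblast-like cluster led by Clec3b, Ccn3 and Tnxb, with 19 and 278 UMIs and a log2 ratio of 0.58 (-0.09 to 1.33), and the cluster led by Dpt and Gdf10, at 13.4 and 11.9 CPM (log2 -0.17, -0.98 to 0.58). The Dpt and Gdf10 exception depended on the shared barcodes, since Pou3f3 was at 6.04 CPM in its 419 shared cells, 53.4 CPM in its 273 maxillary-only cells and 11.9 CPM in its 162 mandibular cells. In the 5 clusters with at least 50 maxillary cells without them, Pou3f3 was at least 2-fold higher in the maxilla in 4, the exception being the Clec3b cluster (log2 -0.01). Pericytes went the other way at E15.5, with Pou3f3 at 13.6 CPM in 135 maxillary and 47.2 CPM in 104 mandibular cells (log2 1.79, 1.01 to 2.64).

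**Figure D2:**
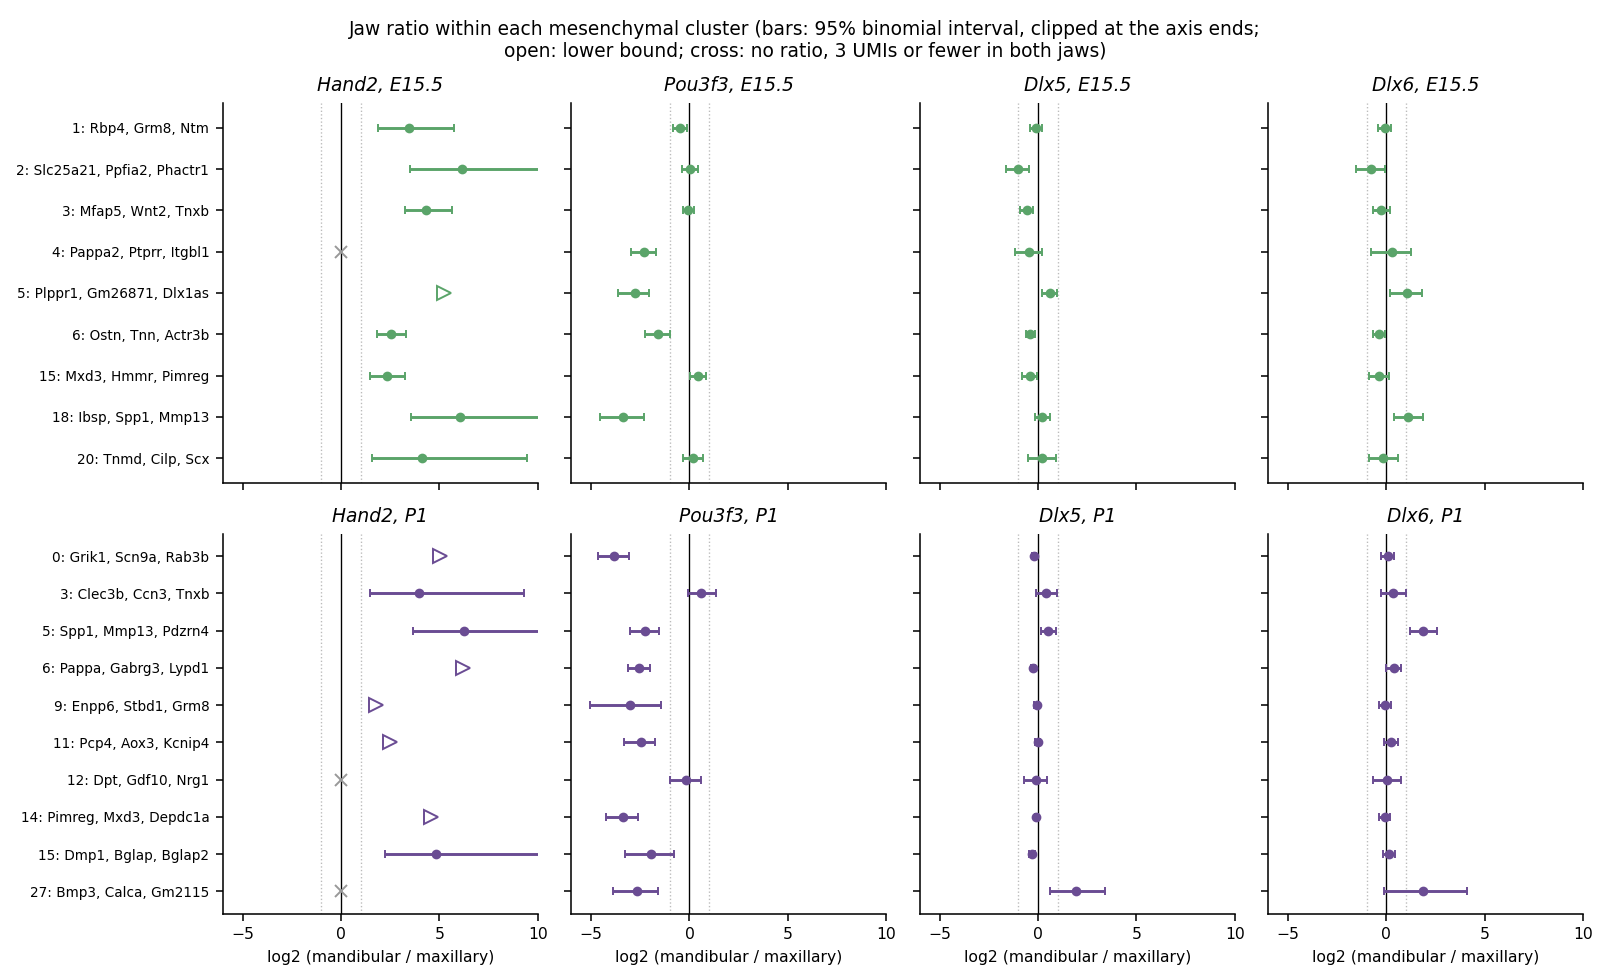
Log2 ratio of mandibular over maxillary level within each mesenchymal cluster with at least 50 cells per jaw, for Hand2, Pou3f3, Dlx5 and Dlx6 at E15.5 (top) and P1 (bottom). Points are ratios with 95% binomial intervals clipped at the axis ends, open triangles are lower bounds, crosses mark clusters with 3 UMIs or fewer in each jaw, and dotted lines stand at 2-fold; Hand2 lay to the right in all clusters with a ratio, while Dlx5 and Dlx6 lay around 0 in most.

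Dlx1 and Dlx2, the factors shared by both jaws, were higher in the maxillary library at E15.5 when all mesenchyme was summed. Dlx1 stood at 33.6, 13.8, 38.7 and 28.3 CPM and Dlx2 at 24.8, 10.3, 52.8 and 37.9 CPM. The E15.5 log2 ratios were -1.28 (-1.42 to -1.15) for Dlx1 and -1.27 (-1.42 to -1.12) for Dlx2, or 2.43-fold and 2.41-fold. The ratios were smaller by cluster. Within the 9 clusters the median ratio was -0.78 for Dlx1 and -0.50 for Dlx2, and when every mesenchymal cluster was given the same weight, an alternative chosen after seeing the data, the ratios were -0.67 and -0.46. The cluster highest in these genes, led by Plppr1, Gm26871 and Dlx1as, had 794 maxillary and 117 mandibular cells, and its Dlx1 levels were 67.5 and 51.5 CPM. Its Dlx2 levels were in the other order, at 57.6 and 81.2 CPM (log2 0.50).

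Dlx3 and Dlx4 were low in mesenchyme at E15.5, at 3.90 and 1.95 CPM for Dlx3 and 1.86 and 0.930 CPM for Dlx4. Their log2 ratios were both -1.0, with intervals of -1.37 to -0.64 and -1.55 to -0.48. These ratios turned on 60 cells. A mandibular cluster led by Lypd1, Sst and Hand2os1, with no maxillary cell, had Dlx3 at 115 CPM, Dlx4 at 88.3 CPM, Dlx1 at 203 CPM and Hand2 at 227 CPM, and was left unnamed because no mesenchyme marker was among its leading genes and the enamel gene Ambn was. All 7 mesenchyme markers were detected in it, each in at least 10% of its cells. With these cells counted as mesenchyme, also an alternative chosen after seeing the data, the ratios were -0.09 for Dlx3 and 0.28 for Dlx4, and -1.01 for Dlx1 and -1.09 for Dlx2. The bias of Dlx3 and Dlx4 between the E15.5 jaws was thus not settled by these libraries.

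Dlx5 and Dlx6, the lower jaw pair of the code, were less than 2-fold apart between the jaws at E15.5. Dlx5 stood at 30.3, 33.8, 137 and 113 CPM, and Dlx6 at 14.0, 21.2, 16.9 and 21.2 CPM. At E15.5 the log2 ratio was 0.16 (0.06 to 0.26) for Dlx5 and 0.60 (0.46 to 0.73) for Dlx6. Dlx6 ranked 375th towards the mandible among 11306 genes, above the 95th percentile of their ratios (0.45). Dlx5 ranged from -0.21 to 0.27 over the settings tried, so its direction flipped, while Dlx6 stayed above 0 but came to 0.04 with equal weight for clusters. The within-cluster medians were -0.39 for Dlx5 and -0.17 for Dlx6 at E15.5 and -0.07 and 0.19 at P1. The P1 ratios of the sums were -0.28 and 0.33, and 2.85 and 2.70 with the shared barcodes dropped from both libraries. In the 5 P1 clusters that kept at least 50 maxillary cells without them, Dlx5 gave 0.59 to 1.76 towards the mandible, but only 2 of these ratios had an interval above 0, and 1 rested on a single maxillary UMI. Dlx6 was past 2-fold in 4 of the 5, on 3, 4, 5 and 17 maxillary UMIs, and 2 of these intervals included 0. By cluster, Dlx6 was higher in mandibular cells in 3 of 9 at E15.5, with 6 the other way, and in 8 of 10 at P1. Dlx6 was past 2-fold towards the mandible in 2 clusters at each stage, of which 1 was skeletal. It was at 12.7 and 26.7 CPM (log2 1.08, 0.39 to 1.83) in the E15.5 osteoblast-like cluster led by Ibsp, and at 7.04 and 25.8 CPM (log2 1.88) in the P1 cluster led by Spp1, Mmp13 and Pdzrn4, which was chondrocyte-like by its markers. Hand2 in that P1 cluster was at 0.235 and 17.6 CPM and Pou3f3 at 44.3 and 9.29 CPM, so that 3 of the jaw genes were unequal in the same skeletal cells.

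Of the 8 genes, 1 (Hand2) was at least 2-fold higher in mandibular E15.5 mesenchyme and 5 (Dlx1, Dlx2, Dlx3, Dlx4 and Pou3f3) in maxillary. Of all 11306 genes tested, 1.28% and 2.96% passed the same line. With the unnamed 60 cells added, the 5 became 3. Dlx3 and Dlx4 were under the mean of 5 CPM needed to enter the tested genes. The median log2 ratio of the other 6 was -0.45, and that of all tested genes was -0.05.

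In P1 mesenchyme 1 of 8 (Hand2) was at least 2-fold higher in the mandible and 1 (Pou3f3) in the maxilla, where the shares of 11528 tested genes were 1.66% and 1.42%. Hand2 was under the mean of 5 CPM at this stage and was not among them. The log2 ratios of the Dlx genes were small: -0.45 for Dlx1, -0.48 for Dlx2, -0.43 for Dlx3, -0.50 for Dlx4, -0.28 for Dlx5 and 0.33 for Dlx6. With the shared barcodes dropped from both libraries they became 0.70, 1.57, 3.57, 3.87, 2.85 and 2.70, and 6 genes passed 2-fold towards the mandible, beside 6.04% of 11535 tested genes. That setting sets the mandibular cells against maxillary-only cells, which held few cells of some clusters, as given above. Within the 10 clusters the medians were -0.06, -0.26, -0.06, -0.09, -0.07 and 0.19, but the maxillary cells of these clusters mixed shared and maxillary-only barcodes. In the cluster led by Pappa, Gabrg3 and Lypd1, for example, Dlx5 was at 226 CPM in shared, 92.99 CPM in maxillary-only and 184 CPM in mandibular cells. Over the 5 clusters with enough maxillary-only cells, the medians without shared barcodes were -0.53 for Dlx1, -0.22 for Dlx2 and 0.37 for Dlx3. They were 0.18 for Dlx4 (2 ratios), 0.80 for Dlx5 and 1.45 for Dlx6 (4 ratios). With shared barcodes the same clusters gave medians of -0.22, -0.07, 0.04, -0.07, 0.42 and 0.38 for Dlx1 to Dlx6. Weighing every cell the same put Dlx3 at 0.13 and Dlx5 at 0.28, so the directions of the Dlx genes at P1 depended on the weighting as well. Pou3f3 and Hand2 kept their directions in each of these settings.

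**Figure D3:**
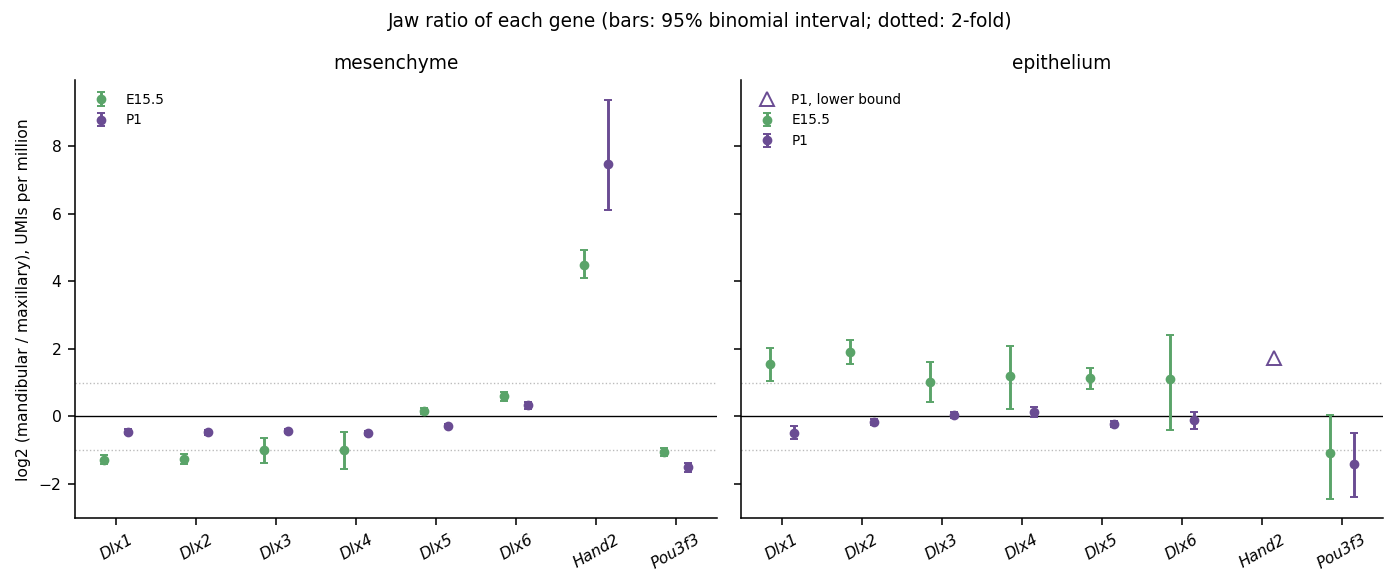
Log2 ratio of mandibular over maxillary level of each gene in mesenchyme and epithelium at E15.5 and P1, with 95% binomial intervals for counting error and dotted lines at 2-fold. Hand2 stands far to the mandibular side and Pou3f3 to the maxillary side in mesenchyme at both stages, and the Dlx genes at P1 lie within 2-fold with the shared barcodes counted as maxillary, a setting on which their directions depend.

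The libraries differed in cell types that border the tooth. Pax3, a paired-box factor of facial mesenchyme, stood at 16.7, 22.6, 30.1 and 3.13 CPM in mesenchyme, and Alx1, a homeobox factor of the midface, at 15.52, 8.03, 26.4 and 7.96 CPM. A P1 cluster led by Alx1 and Pax3 held 2052 maxillary and 9 mandibular cells, and an E15.5 cluster led by Alx1 and Cdh20 held 476 and 4. Without the clusters of this kind, a setting added after seeing the data, Hand2 gave 4.37 and 7.23 and Pou3f3 -1.10 and -1.56 at E15.5 and P1, beside 4.50 and 7.49 and -1.05 and -1.51 with them. Dlx1 gave -1.35 and -0.55. Bulk sums over a class cannot tell fewer cells with a gene from less RNA of it per cell, and the part of cell composition in the Dlx1 and Dlx2 ratios was not tested beyond the values given for these clusters, for cluster means and, at -1.10 and -0.83 in E15.5 mesenchyme, for means over mesenchymal subclasses.

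At E15.5, 4 of the 5 non-coding neighbours had a jaw ratio of the same sign as the gene beside them in mesenchyme, and Dlx6os1 did not. The match of Dlx4os is not settled, since Dlx4 itself turned to 0.28 with the unnamed cluster added. At P1 the signs of 3 neighbours depended on the shared barcodes. Hand2os1 stood at 0.794, 19.8, 0.164 and 11.7 CPM (log2 ratios 4.64 and 6.16). Pantr1, beside Pou3f3, stood at 47.6, 20.1, 22.7 and 7.61 CPM (log2 -1.25 and -1.58). Of the neighbours, 1 was at least 2-fold higher in mandibular and 2 in maxillary mesenchyme at each stage. The second maxillary one was Dlx1as (log2 -1.43 and -1.07). The shares of all tested genes were 1.28% and 2.96% at E15.5 and 1.66% and 1.42% at P1. With the shared barcodes left out, a setting added after seeing the data for these genes, 4 were 2-fold higher in the mandible at P1 and 1 in the maxilla, beside 6.04% and 4.9% of 11535 tested genes. Dlx4os gave -0.90 and -0.36. Dlx6os1 gave -0.29 and -0.20, where Dlx6 gave 0.60 and 0.33. Without the shared barcodes the P1 ratios were 1.33 for Dlx1as, 3.46 for Dlx4os, 3.54 for Dlx6os1, 4.37 for Hand2os1 and -2.16 for Pantr1, so that only Hand2os1 and Pantr1 kept their P1 direction. Pantr1 shares no annotated bases with Pou3f3, whereas Hand2os1 and Hand2 share exons.

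Genes of the endothelin signal and the mandibular program did not share the Hand2 pattern as a group. Of 9 listed, 8 had a ratio in E15.5 mesenchyme, none was 2-fold higher in the mandible and 2 were in the maxilla, with a median of -0.11, beside 1.28% and 2.96% of all tested genes. Those 2 were Gbx2 and Nkx3-2, with 19 and 8 maxillary UMIs. Ednra, the endothelin receptor, stood at 84.8, 61.8, 65.7 and 52.7 CPM. Pitx1, a homeobox gene of the lower jaw and hind limb, was higher in mandibular mesenchyme. Its levels were 63.4, 97.0, 8.91 and 29.5 CPM, with log2 ratios of 0.61 at E15.5 and 1.73 at P1. Gsc, a homeobox target of the pathway, had log2 ratios of 0.62 and 0.34. At P1 3 of 8 with a ratio were 2-fold higher in the mandible, namely Pitx1, Edn1 (19 and 44 UMIs) and Nkx3-2 (1 and 4 UMIs), beside 1.66% of all tested genes, and the median was 0.50. Without the shared barcodes 6 had a ratio, 1 (Pitx1) passed towards the mandible and 2 towards the maxilla, where Gsc turned to -1.25 and Ednra gave -1.19, beside 6.04% and 4.9% of tested genes. Hand1 never exceeded 4 UMIs in mesenchyme.

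Of 6 genes with roles in maxillary identity, none passed 2-fold in E15.5 mesenchyme and 1, Meis2, did in P1 maxillary mesenchyme (79.96 and 39.5 CPM, log2 -1.02). Towards the maxilla, 2.96% of all tested genes passed at E15.5 and 1.42% at P1. Towards the mandible, 1.28% and 1.66% passed. Jaw mesenchyme genes of both jaws were tilted to the maxilla at E15.5. Of 10 such genes 6 were at least 2-fold higher there and none in the mandible, beside 2.96% and 1.28% of all tested genes, with a median of -1.19. Pax9, a dental mesenchyme factor, stood at 168 and 41.9 CPM, Lhx6 at 46.0 and 9.93 CPM and Msx1 at 237 and 76.3 CPM. Dlx1, Dlx2 and this list of jaw mesenchyme genes thus shared the maxillary tilt of the E15.5 sums, and Hand2, Dlx6, Gsc and Pitx1 ran against it. Prrx1 and Twist1 of the list were also markers used to name mesenchyme. Papilla markers summed to 313 and 135 CPM in the maxillary and mandibular E15.5 mesenchyme, with Msx1 giving 237 and 76.3 CPM of this. Osteoblast markers summed to 750 and 1056 CPM. The part of cell composition in this tilt was not tested. At P1 2 of the 10 (Lhx6 and Pax9) passed 2-fold, towards the maxilla, beside 1.42% of tested genes. Without the shared barcodes 3 of the 6 and 5 of the 10 passed towards the maxilla at P1, and 1 of each list towards the mandible, beside 4.9% and 6.04%.

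In epithelium, Hand2 was near background and Pou3f3 was low. Hand2 had 3, 1, 0 and 12 UMIs, or 0.189, 0.367, 0 and 0.431 CPM, and Pou3f3 had 5.42, 2.57, 1.43 and 0.539 CPM. The log2 difference of epithelium from mesenchyme for Pou3f3 was -2.98, -3.01, -4.15 and -4.05. The Dlx genes were epithelial as well as mesenchymal. Dlx2 in epithelium stood at 10.9, 41.1, 105 and 93.2 CPM, and at P1 it was higher there than in mesenchyme, by 0.99 (0.92 to 1.06) in the maxillary and 1.30 (1.22 to 1.38) in the mandibular library. At E15.5 its log2 difference was -1.19 (-1.42 to -0.96) in the maxillary and 1.99 (1.68 to 2.29) in the mandibular library. Dlx6 gave log2 -3.54, -3.04, -0.68 and -1.12, and Dlx3 gave 0.69 and 2.72 at E15.5 and -0.48 and -0.02 at P1. The P1 maxillary values again include the shared barcodes. Without them, also a setting added after seeing the data, 4 directions turned. Dlx3 went to 2.46 (1.91 to 2.99), Dlx4 from -1.39 to 1.15 (0.06 to 2.11), Dlx5 from -0.83 to 1.06 (0.56 to 1.53) and Dlx6 to 0.65 (-0.75 to 1.80), whose interval included 0, while Dlx2 gave 1.80 and Pou3f3 -3.57.

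**Figure D4:**
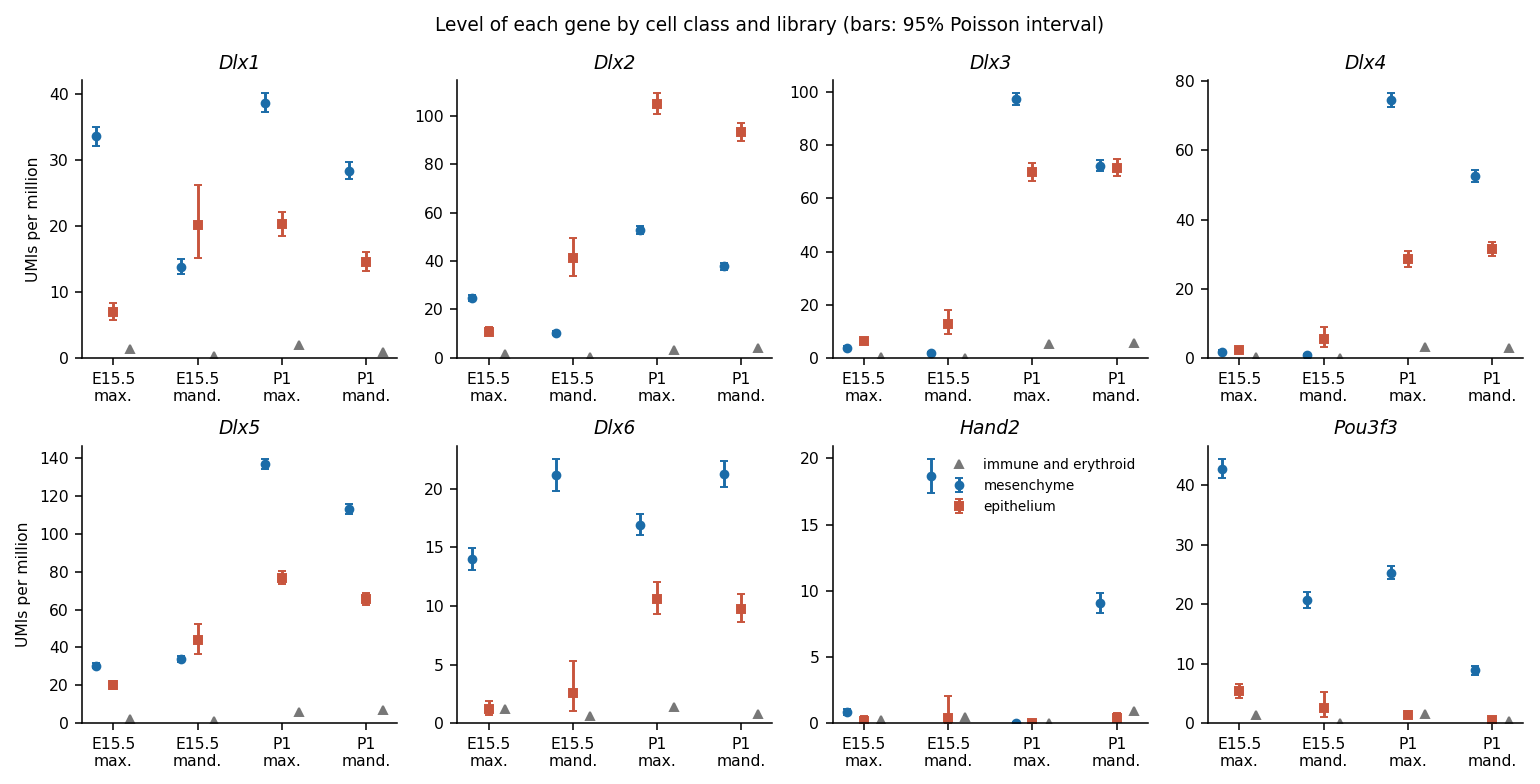
Level of each gene (CPM, linear axes from 0 that differ by gene) in mesenchyme, epithelium and, as background, immune and erythroid cells of the 4 libraries, with 95% Poisson intervals for mesenchyme and epithelium. Hand2 is highest in mandibular mesenchyme, Dlx2 is highest in P1 epithelium, and Dlx3 and Dlx4 are far higher at P1 than at E15.5.

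The Dlx genes of E15.5 epithelium were higher in the mandibular library. At least 2-fold differences towards the mandible were found for 6 of the 8 genes, and towards the maxilla for 1 (Pou3f3), beside 2.54% and 2.61% of 11360 tested genes. Only Dlx1, Dlx2, Dlx3 and Dlx5 reached the mean of 5 CPM to be among the tested genes, and all 4 were past 2-fold towards the mandible. The log2 ratios were 1.54 for Dlx1, 1.91 for Dlx2, 1.03 for Dlx3, 1.20 for Dlx4, 1.12 for Dlx5 and 1.10 for Dlx6, the last with an interval of -0.39 to 2.41. The ratio of Pou3f3 was -1.08, with an interval of -2.43 to 0.03. The 7 mesenchyme markers, led by Col1a1, summed to 1336 CPM in the maxillary and 704 CPM in the mandibular epithelium, and the mesenchymal gene Prrx1 stood at 77.6 and 18.0 CPM. Their part in the Pou3f3 ratio was not tested. Only 143 mandibular epithelial cells stood against 1071 maxillary ones. The maxillary epithelium included suprabasal cells, led by Krt13 and Krt6a, which had 498 maxillary and 24 mandibular cells. Within the cluster led by Shh, Tafa4 and Sp6, which held 487 and 115 cells, Dlx1 was at 10.6 and 31.6 CPM (log2 1.58) and Dlx2 at 23.5 and 65.5 CPM. Dlx5 there was at 46.6 and 63.1 CPM (log2 0.44), so its excess was smaller among like cells. When each cell was named by its own markers the count of 6 became 2. Dlx1 to Dlx5 were then all under 2-fold, at log2 0.51, 0.96, 0.30, 0.74 and 0.82.

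At P1 the Dlx genes were less than 2-fold apart between the epithelia of the jaws, with the shared barcodes counted as maxillary. The log2 ratios were -0.48, -0.17, 0.04, 0.14, -0.23 and -0.11 for Dlx1 to Dlx6, and with the shared barcodes dropped from both libraries they were -0.00, 1.07, 1.09, 1.97, 1.0 and 0.94. In that setting 391 maxillary epithelial cells were left, and 3 genes (Dlx2, Dlx3 and Dlx4) passed 2-fold towards the mandible and 1 (Pou3f3) towards the maxilla, beside 6.41% and 6.95% of 11315 tested genes. The 2 genes past 2-fold were Hand2 towards the mandible (0 against 12 UMIs, at least 3.31-fold higher) and Pou3f3 towards the maxilla (log2 -1.41, -2.40 to -0.49), where 0.893% and 0.625% of 11200 tested genes passed. Both were under the mean of 5 CPM and not among the tested genes, and both were at levels near those of immune and erythroid cells. With the shared barcodes counted as maxillary, Dlx3 and Dlx5 differed more between some epithelial clusters than between jaws. Dlx3 stood at 131 and 113 CPM in the ameloblast-like cluster led by Enam and Amelx and at 40.7 and 40.6 CPM in the cluster led by Odam and Nectin4. Dlx5 had the opposite order, at 29.8 and 26.9 CPM in the ameloblast-like cells and 111 and 102 CPM in the Odam cluster. Dlx2 was at 131 and 125 CPM in the cluster led by Vwde, above 101 and 69.2 CPM in the ameloblast-like cells.

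**Figure D5:**
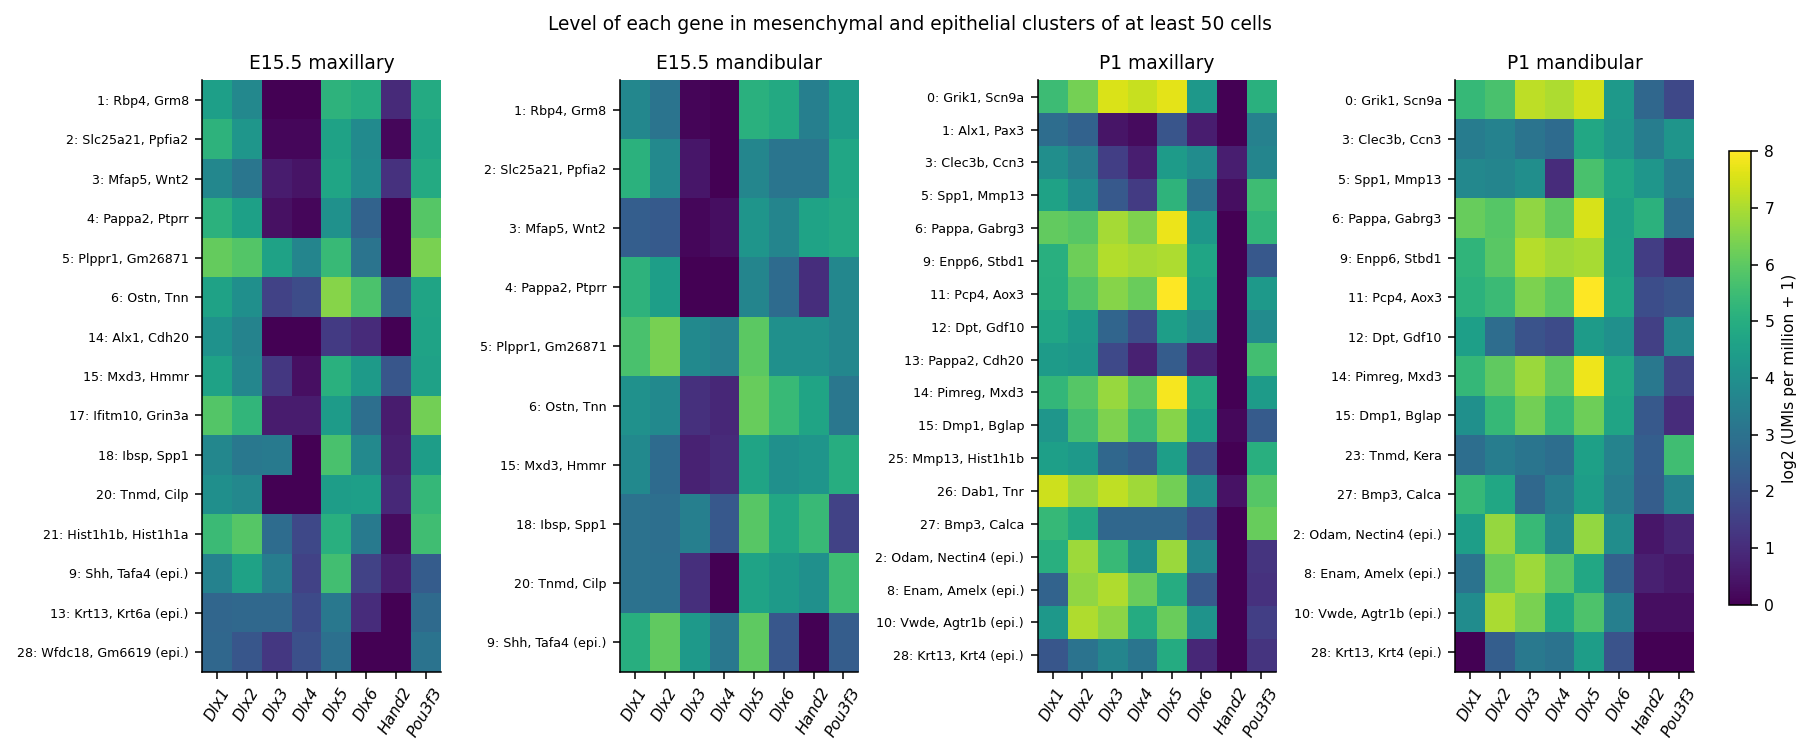
Level of each gene, as log2(CPM + 1) (colour scale from 0 to 8), in each mesenchymal and epithelial (epi.) cluster with at least 50 cells of that library. Dlx3, Dlx4 and Dlx5 are high in the same P1 mesenchymal clusters of both jaws, and the Hand2 column is brighter in the mandibular panels.

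From E15.5 to P1 the largest differences in mandibular mesenchyme, whose P1 cells hold no shared barcode, were in Dlx3 and Dlx4. The log2 difference (P1 minus E15.5) was 5.21 (4.90 to 5.54) for Dlx3 and 5.83 (5.38 to 6.31) for Dlx4. It was 1.74 for Dlx5, 1.88 for Dlx2, 1.04 for Dlx1 and 0.00 (-0.12 to 0.13) for Dlx6. Hand2 was lower at P1 by log2 -1.04 (-1.20 to -0.89) and Pou3f3 by -1.21 (-1.37 to -1.06). In maxillary mesenchyme Dlx3 gave 4.64 and Dlx4 5.32. The maxillary-only P1 cells had 6.09 CPM of Dlx3 and 3.61 CPM of Dlx4, against 3.90 and 1.86 CPM at E15.5, so most of that difference lay in the shared barcodes. The unnamed 60 mandibular cells at E15.5 held much of the early signal of this pair, since unnamed clusters carried 38.4% of the Dlx3 and 50.8% of the Dlx4 UMIs of their library. In mandibular epithelium Dlx3 gave 2.48, Dlx4 2.51 and Dlx2 1.18, and Dlx1 gave -0.47 (-0.88 to -0.04). In maxillary epithelium Dlx3 gave 3.47, Dlx4 3.58 and Dlx2 3.27, and Dlx1 went the other way, at 1.55 (1.24 to 1.86). Without the shared barcodes these became 2.41, 1.74, 2.03 and 1.07 (0.30 to 1.77). In maxillary mesenchyme they became 0.64 (0.27 to 1.00) for Dlx3 and 0.95 (0.45 to 1.44) for Dlx4, while the other Dlx genes turned from higher to lower at P1. Dlx1 went from 0.21 to -0.95, Dlx2 from 1.09 to -0.96, Dlx5 from 2.17 to -0.95 and Dlx6 from 0.28 to -2.10 (-2.56 to -1.67), the last being the widest of the Dlx differences in that setting. Each stage was 1 library per jaw, so stage and library cannot be told apart. The maxillary-only P1 mesenchyme also differed in cell types from the shared cells, as given above.

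In P1 maxillary mesenchyme, cells with a UMI of one Dlx gene had a UMI of its pair partner more often than mesenchyme at large. After thinning to 2000 UMIs, 23.7% (21.0 to 26.5) of the cells with Dlx3 had Dlx4, beside 9.47% of all mesenchymal cells. In the P1 mandibular library the shares were 14.2% (11.6 to 17.3) and 9.21%. Of cells with Dlx6, 29.4% had Dlx5 in the P1 maxillary library against 16.1% of all, and 19.5% (14.5 to 25.5) against 17.7% in the mandibular one. Of cells with Dlx1, 12.9% had Dlx2 in the P1 maxillary library against 7.11% of all, and 7.89% against 6.58% in the mandibular one. Genes of different pairs gave gaps of similar size in the P1 maxillary library. Of its cells with Dlx3, 32.0% had Dlx5, of those with Dlx4 30.5% and of those with Dlx2 27.6%, and of those with Dlx1, 20.5% had Dlx3 against 11.1% of all. Further combinations were also above the share of all cells, as for Dlx4 in cells with Dlx1, at 15.8% (12.8 to 19.1) against 9.47%. Some had intervals that included that share, as for Dlx2 in cells with Dlx6, at 8.53% (5.13 to 13.1) against 7.11%. Pou3f3 was in 8.17% (6.02 to 10.8) of the cells with Dlx1 against 5.30% of all. The order was the other way in the P1 mandibular library, where Pou3f3 was in 1.13% (0.233 to 3.26) of the cells with Dlx1 and 0.559% (0.182 to 1.30) of those with Dlx5 against 2.08% of all, the Dlx1 interval including that share. The P1 maxillary class joined cells with high and low Dlx levels, as the barcode sets show, and its larger gaps stand beside that. No excess or lack of Pou3f3 in Hand2 cells was detectable at this depth, with 3 of 102 Hand2 cells holding Pou3f3 in the E15.5 mandibular library (2.94%, against 3.33% of all) and 2 of 84 at P1 (2.38%, against 2.08%).

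Over the 54 cell classes of at least 50 cells in the 4 libraries, the genes most like each member were listed by Pearson correlation of log2(CPM + 1) among 12117 genes, as a description of classes that share libraries. Hand2 was most like Hand2os1 (0.94), Gm34030 (0.94) and Gsc (0.60). Pou3f3 was most like Pantr1 (0.96), Shox2 (0.89) and Twist1 (0.88). For Dlx3 and Dlx4 the nearest were each other (0.94), the antisense Dlx4os (0.95 and 0.97) and the homeobox gene Msx2 (0.95 and 0.94). Dlx5 was nearest to Ptch1, the Hedgehog receptor (0.87), Dlx6os1 (0.87) and Unc5c (0.86), and Dlx6 to Galnt5 (0.83), Pdgfra (0.82) and Vasn (0.81). Dlx1 and Dlx2 did not name each other, with Ebf4 (0.86) and Cnksr2 (0.87) at the head of their lists. Hand2 and Dlx6 gave 0.45, and Hand2 and Pou3f3 0.29.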

How the data were processed

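Single-cell 3' libraries (10x Genomics v3.1) of pooled molar tooth organs were analysed from the UMI counts per gene and barcode that the authors deposited, made with Cell Ranger 7.0.1 on mm10, with no normalization. Per-cell counts were used as deposited. Barcodes under 1000 UMIs were left out, as were P1 mandibular barcodes also present in the P1 maxillary library. Both jaws of a stage were clustered jointly (scanpy 1.11.5, 2000 variable genes, 40 components, Leiden resolution 1.0), without 38 jaw genes, so that cells of both jaws fell under the same class borders. Clusters were named from marker lists, by thresholds set after seeing the clusters. Scrublet marked 0 or 1 barcode per library, so it had not worked, and no doublets were removed in the main analysis. Per the study's methods, cells were later filtered for doublets and at 3 median absolute deviations, steps that the deposited counts precede. Both were tried as alternatives. UMIs were summed per class and library and divided by the class total. Totals per library were 109723360, 86659227, 128812956 and 139873101 UMIs in all barcodes (E15.5 maxillary, E15.5 mandibular, P1 maxillary, P1 mandibular). Intervals were exact, at 95% (binomial for shares and jaw ratios, Poisson for CPM). A ratio of 2-fold or more was counted, a floor of 3 UMIs was used for genes at 0, and no ratio was given where both jaws had 3 UMIs or fewer. UMIs are molecules, but intervals hold no biological spread. The genes named were the 8 members, their non-coding neighbours and lists for the endothelin and mandibular program, maxillary identity and both jaws, plus the 3 most alike genes of each member. Members and lists were chosen with earlier results of these data known. The code was tested on simulated counts. Alternatives covered cell filters, clustering, naming, weighting, depth and shared barcodes. Some markers are not reported here.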

Additional observations from a re-analysis of the deposited data

Results flagged for a closer look

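Dlx1 to Dlx4 had ratios of opposite sign in the mesenchyme and the epithelium of E15.5. The log2 ratio (mandibular minus maxillary) was -1.28 in mesenchyme and 1.54 in epithelium for Dlx1, -1.27 and 1.91 for Dlx2, -1.0 and 1.03 for Dlx3, and -1.0 and 1.20 for Dlx4. The mesenchymal ratios of Dlx3 and Dlx4 turned or came near 0 in several settings, as with the unnamed cluster added (-0.09 and 0.28). The ratio in epithelium also had opposite signs at the stages, at 1.54 (E15.5) and -0.481 (P1) for Dlx1, 1.91 and -0.17 for Dlx2, and 1.12 and -0.232 for Dlx5. The mesenchymal ratio of Dlx5 was 0.16 in the earlier and -0.277 in the later pair. With the shared barcodes dropped from both P1 libraries the P1 values in epithelium were -0.00 for Dlx1, 1.07 for Dlx2 and 1.0 for Dlx5, and mesenchymal Dlx5 gave 2.85, so the opposite signs of Dlx2 and Dlx5 were then lost. With 1 library per group, none of these differences was tested.

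Unnamed clusters, which entered no main comparison, held high levels of several members, above those of immune and erythroid cells. The E15.5 mandibular cluster of 60 cells led by Lypd1, Sst and Hand2os1 had 203 CPM of Dlx1, 102 of Dlx2, 115 of Dlx3, 88.3 of Dlx4, 178 of Dlx5 and 227 of Hand2. In the E15.5 maxillary library a cluster led by the pigment cell gene Dct and the neuronal genes Vip and Prph had 24.4 CPM of Hand2. In the P1 maxillary library a cluster led by the hormone gene Pomc, Vip and Gh had 42.4 CPM of Hand2, and one led by Fstl5, Myt1l and Calb2 had 58.0 CPM of Dlx6.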

How the results depend on the processing

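No paired analysis was possible because each stage and jaw had 1 library. At E15.5, the count of genes 2-fold higher in mandibular mesenchyme went from 1 to 2 at 1.5-fold. The maxillary count of 5 became 3 with each library clustered alone, 2 with each cell named by its own markers, 2 at Leiden resolution 2.0, 4 with the quality filter of 3 median absolute deviations, 4 after thinning to 2000 UMIs, 2 as a mean over mesenchymal subclasses, 1 as a mean over mesenchymal clusters and 3 with the unnamed cluster added, the last 2 settings being chosen after seeing the data. In E15.5 epithelium the mandibular count of 6 became 2 by each cell's own markers and 2 after thinning to 2000 UMIs. Dlx1 to Dlx5 were all under 2-fold by own markers, and Dlx1, Dlx2 and Dlx3 were after thinning. The maxillary count of 1 became 0 with the top Scrublet scores removed, with every cell weighing the same and after thinning. In P1 mesenchyme the mandibular count of 1 became 6 with shared barcodes dropped from both libraries and 6 with them dropped from the maxillary one. In P1 epithelium the mandibular count of 1 became 3 and 4 under these settings, and 0 with Scrublet removal, equal cell weight and thinning. The maxillary count of 1 became 0 with Scrublet removal and thinning.

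Signs turned for Dlx3 in E15.5 mesenchyme (0.39 by own markers) and for Dlx4 (0.18 clustered alone, 0.68 by own markers, 0.32 at resolution 2.0, 0.28 over clusters, 0.28 with the unnamed cluster). After thinning, E15.5 epithelial Dlx3 gave -0.10, and P1 epithelial Pou3f3 gave 0.25 with Scrublet removal. No direction could be had, since a jaw had no UMI, for Pou3f3 in E15.5 epithelium after thinning and for Hand2 in P1 epithelium without shared barcodes in both or the maxillary library. Leaving the shared barcodes out, a setting added after seeing the data, turned the P1 minus E15.5 difference of maxillary mesenchyme for Dlx1 (-0.95), Dlx2 (-0.96), Dlx5 (-0.95) and Dlx6 (-2.10), the P1 maxillary epithelium minus mesenchyme difference for Dlx3 (2.46), Dlx4 (1.15), Dlx5 (1.06) and Dlx6 (0.65), and, among calls past 2-fold, the P1 jaw ratio of Dlx1as (1.33). The cause of these shifts was not tested. Few UMIs lay behind each Hand2 ratio in maxillary and epithelial cells, which limits their precision.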

Other observations

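Glia-like cells had Dlx1 at 28.8, 33.1, 27.6 and 16.5 CPM and Dlx2 at 10.6, 16.3, 21.1 and 20.2 CPM (E15.5 maxillary, E15.5 mandibular, P1 maxillary, P1 mandibular), with no jaw pattern as wide as that of Hand2 in mesenchyme. Hand2 in P1 glia was 5.77 CPM (9 UMIs) in the maxillary and 6.43 CPM (7 UMIs) in the mandibular library, the P1 maxillary glia being above the mesenchyme of the same library. E15.5 pericytes had no Hand2 UMI in 135 maxillary cells and 14.1 CPM (18 UMIs) in 104 mandibular cells. In the P1 maxillary library 82.4% of all Hand2 UMIs lay in unnamed clusters.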
